A study of Mus musculus with 21 samples.

Results

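The anti-apoptotic BCL-2 genes described here are Bcl2, Bcl2l1 (encoding BCL-XL), Bcl2l2 (encoding BCL-W) and Mcl1. They were taken by their Ensembl identifiers from count tables of 45706 mouse genes, so that 4 genes were followed through 21 RNA-seq libraries. The libraries came from 3 cell fractions of a mouse model of juvenile myelomonocytic leukemia (JMML): LSK cells (lineage-negative, Sca1+ cKit+ stem and progenitor cells) of the bone marrow (BM) and CD11b+ myeloid cells from BM and from spleen. Each fraction held 2 libraries of MxCre mice, 2 of Ptpn11D61Y/+ mice and 3 of MxCre;Ptpn11D61Y/+ mice at stage 3 (S3), the terminally ill stage. The labels number the control libraries 1 and 2 and name the S3 libraries by animal: 540 and 815 in all fractions, 768 in LSK cells and 640 in both CD11b+ fractions.

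All mice of the model received poly I:C. MxCre is a Cre recombinase driven by an interferon-inducible promoter. Mice that are Ptpn11D61Y/+ without Cre keep a Neo-Stop cassette that silences the mutant allele and leaves 1 functional copy of Ptpn11, which encodes the phosphatase SHP2. In MxCre;Ptpn11D61Y/+ mice, poly I:C removes the cassette and hematopoietic cells express SHP2 D61Y, an activator of RAS signaling. LSK cells were sorted after lineage depletion, and CD11b+ cells were enriched on magnetic columns, which leaves room for other cells. The labels give no ages, and the sources do not state whether equally numbered control libraries came from the same mouse.

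BCL-2 family proteins govern the mitochondrial path to apoptosis. Anti-apoptotic members hold the effectors BAX and BAK in check and bind BH3-only proteins such as BIM, PUMA and NOXA, which set the process off. Cell types differ in the member they rely on: BCL-2 is prominent in lymphocytes, BCL-XL in platelets and maturing erythroid cells, and MCL-1, a protein of short half-life, in stem cells and neutrophils. The RNA values below carry no information on protein amount.

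The genes lie on 4 chromosomes of GRCm38: Bcl2 (ENSMUSG00000057329) at chr1:106538178-106714274 on the minus strand, Bcl2l1 (ENSMUSG00000007659) at chr2:152780668-152831728 on the minus strand, Bcl2l2 (ENSMUSG00000089682) at chr14:54883377-54888234 on the plus strand and Mcl1 (ENSMUSG00000038612) at chr3:95658788-95663176 on the plus strand. The BH1 domain, part of the groove that binds BH3-only proteins, marks the family. The 60 coding bases around its 4 most conserved codons are shown to compare the members, with these codons (for asparagine, tryptophan, glycine and arginine) in capitals. They were read 5′ to 3′ on the coding strand at chr1:106712428-106712487, chr2:152829550-152829609, chr14:54884631-54884690 and chr3:95659826-95659885.
Bcl2: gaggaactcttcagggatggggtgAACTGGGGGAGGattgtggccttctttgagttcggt
Bcl2l1: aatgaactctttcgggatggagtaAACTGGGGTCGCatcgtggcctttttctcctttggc
Bcl2l2: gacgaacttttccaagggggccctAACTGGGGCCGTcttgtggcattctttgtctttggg
Mcl1: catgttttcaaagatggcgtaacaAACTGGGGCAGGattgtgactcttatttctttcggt
Bcl2 and Bcl2l1 were the most alike pair, with 71.7% of the 60 bases identical, and Bcl2l2 matched them at 66.7% and 63.3%. Mcl1 was the most distant, at 55.0% with Bcl2, 55.0% with Bcl2l1 and 51.7% with Bcl2l2. Exons of Bcl2l2 overlap those of Gm20521 on the same strand, so its counts depend on how shared reads were assigned, and exons of Bcl2 overlap D630008O14Rik on the opposite strand. No overlap was annotated for Bcl2l1 or Mcl1.

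The libraries held 34992610 to 104509425 counts (median 69421661). At this depth every member was counted in every library, from 96 and 97 counts of Bcl2l2 in BM S3 815 and BM MxCre 1 to 168792 counts of Mcl1 in spleen MxCre 2. Gene detection was lowest in BM MxCre 1 (14885 genes), spleen MxCre 1 (14641 genes) and BM S3 815 (14761 genes). Mitochondrial transcripts took 3.79% of counts in spleen Ptpn11D61Y/+ 1 and 0.1645% to 1.10% in the other 20 libraries.

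Ptpn11 itself was read first as a check of the labels. In LSK cells it was at 111 and 116 CPM (counts scaled to a fixed library size after TMM normalization) in MxCre, at 64.1 and 60.5 CPM in Ptpn11D61Y/+ and at 153, 152 and 140 CPM in S3. The Ptpn11D61Y/+ libraries were thus the lowest, and no group overlapped another. In BM CD11b+ cells it was at 22.0 and 42.8 CPM in MxCre, 46.0 and 55.0 CPM in Ptpn11D61Y/+ and 62.7, 26.3 and 119 CPM in S3 540, 815 and 640, so that MxCre lay below Ptpn11D61Y/+ and S3 overlapped both. In the spleen it was at 14.6 and 38.2 CPM in MxCre, 62.3 and 35.3 CPM in Ptpn11D61Y/+ and 91.9, 59.8 and 140 CPM in S3, so that S3 lay above MxCre and Ptpn11D61Y/+ overlapped both. The order of the LSK groups, with Ptpn11D61Y/+ lowest, was thus not seen in the CD11b+ fractions.

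The sex-linked transcripts Xist (female) and Ddx3y (male) did not always follow the animal numbers. Animal 540 had 1 count of Xist and 5083 of Ddx3y in its LSK library, 2780 and 173 in its marrow CD11b+ library, and 712 and 1275 in its splenic one. BM MxCre 2 had 2834 and 353, while LSK MxCre 2 had 9 and 4619. Spleen Ptpn11D61Y/+ 1 had 4753 and 0, while LSK Ptpn11D61Y/+ 1 had 17 and 7357. Equal numbers therefore do not always mark 1 animal, and 3 libraries (BM MxCre 2, BM S3 540 and spleen S3 540) held at least 100 counts of both transcripts. Results are given with and without these 3 libraries wherever leaving them out changed a call.

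Stem and progenitor markers separated the LSK from the CD11b+ libraries. The summed level of 8 stem and progenitor genes, among them Kit, Ly6a and Cd34, ran from 1098 to 1721 CPM in LSK libraries and from 25.3 to 529 CPM in CD11b+ libraries. The sum of 8 mature neutrophil markers ran from 301 to 1643 CPM in LSK and from 2478 to 99281 CPM in CD11b+ libraries. Among the CD11b+ libraries it was lowest in spleen Ptpn11D61Y/+ (2478 and 6092 CPM). In LSK MxCre 1 it (1643 CPM) was about as high as the stem and progenitor sum (1636 CPM). Transcripts of other cells were present in the CD11b+ fractions, first of all those of erythroid cells. The 10 erythroid markers, led by Hba-a1 or Hbb-bs, summed to between 14860 and 224157 CPM in the BM and between 1184 and 29520 CPM in the spleen, and no marker of the list was at 0 in any library. In such bulk samples, fewer cells of a type and less RNA per cell cannot be told apart.

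To compare genes with each other, counts were scaled to the library and to the length of the merged exons (level per kb, in CPM per kb). By this length Mcl1 had the highest level per kb of the 4 genes in 21 of 21 libraries. In LSK cells the order was Mcl1, Bcl2, Bcl2l1 and Bcl2l2 in 7 of 7 libraries, with median levels per kb of 88.4, 7.45, 5.15 and 3.65. In the CD11b+ fractions Bcl2l1 stood second in 14 of 14 libraries, and Bcl2 and Bcl2l2 shared the lower places, with Bcl2l2 above Bcl2 in 2 BM and 2 spleen libraries. Median levels per kb in BM CD11b+ cells were 233 for Mcl1, 84.2 for Bcl2l1, 1.92 for Bcl2 and 1.36 for Bcl2l2. In spleen CD11b+ cells they were 291, 15.4, 3.06 and 1.63.

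**Figure D1:**
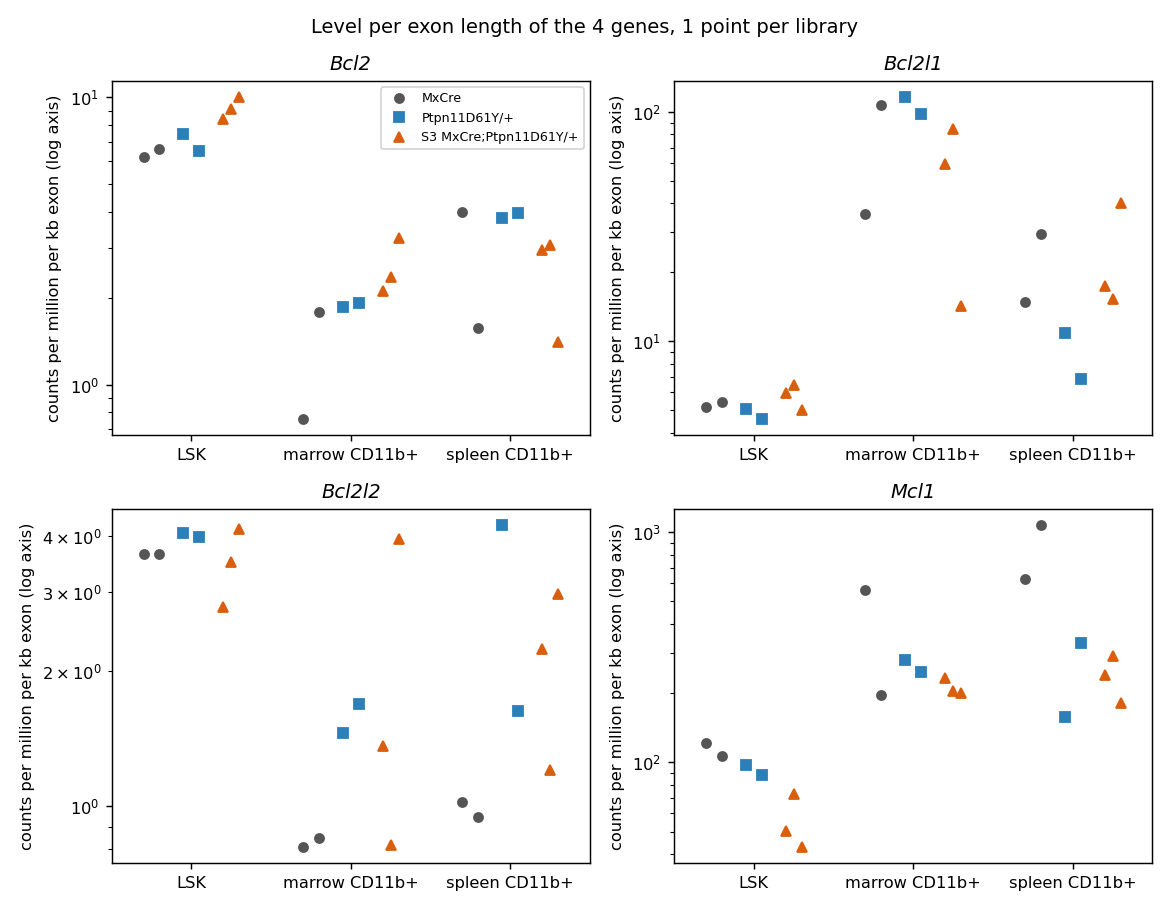
Level per exon length of Bcl2, Bcl2l1, Bcl2l2 and Mcl1 in each of the 21 libraries (CPM per kb of merged exon, log axis, a scale per panel), by fraction and genotype. Bcl2 was highest in LSK cells, Bcl2l1 in BM CD11b+ cells, and Mcl1 was above its LSK levels in all 14 CD11b+ libraries.

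As a share of the summed level per kb of the 4 genes, Mcl1 held a median of 85.4% in LSK cells, 70.9% in CD11b+ libraries of the BM and 93.7% in those of the spleen. Bcl2l1 held 4.47%, 28.0% and 4.95%, and its share in the BM ranged from 6.01% in MxCre 1 to 35.0% in MxCre 2. Bcl2 held 6.51% in LSK cells but only 0.583% in the marrow and 0.986% in the splenic CD11b+ libraries. The order and the shares depend on the length used. With the longest transcript, Bcl2l1 stood above Bcl2 in 2 LSK libraries. With the longest coding sequence, the median share of Bcl2 in LSK cells was 19.4% and that of Mcl1 67.7%, and Bcl2l1 held a median of 41.9% in the BM. By that length Bcl2l1 stood above Mcl1 in BM MxCre 2 (49.95% against 47.95%), and Bcl2 stood above Bcl2l1 in spleen Ptpn11D61Y/+ 2 (4.12% against 3.61%).

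**Figure D2:**
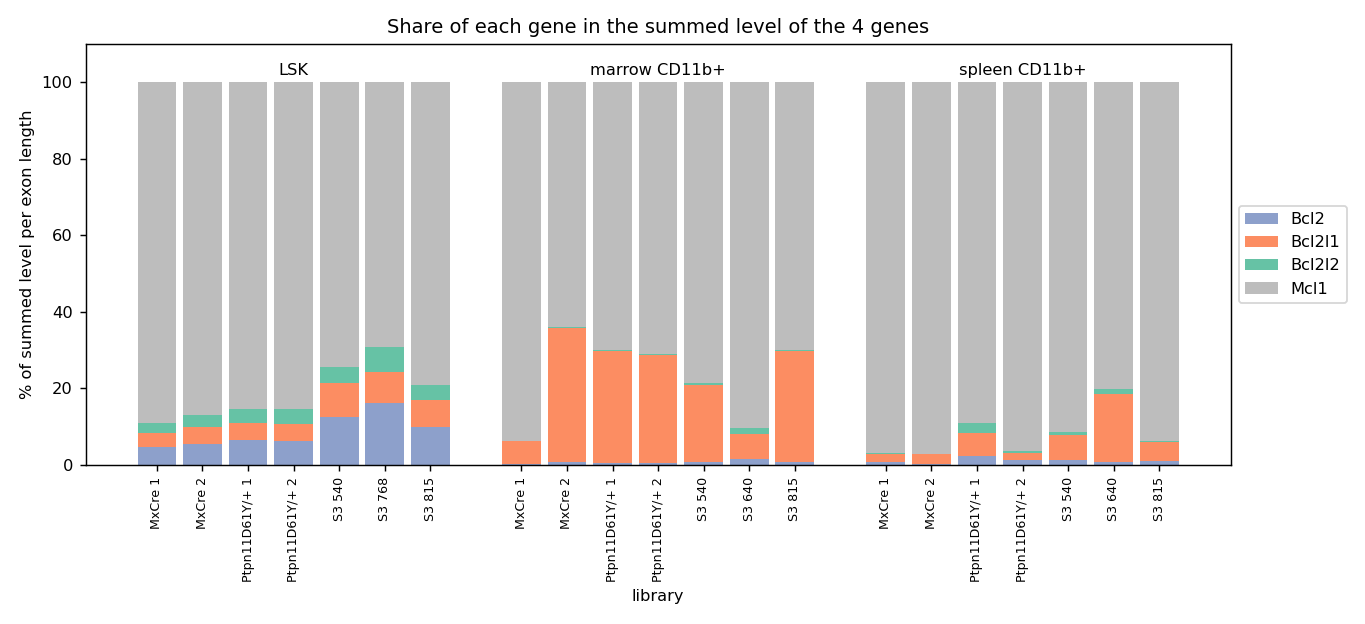
Share of each gene (percent of the summed level per kb of merged exon of the 4 genes) in each library, labelled with genotype and replicate or animal number. Mcl1 fills 64.1% to 97.1% of every bar, Bcl2l1 is widest in 5 of the 7 BM CD11b+ libraries (not in MxCre 1 and S3 640), and Bcl2 is widest in LSK cells, most of all in the 3 S3 libraries.

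The first comparison asked how the 4 genes differ between the fractions. Averaged with equal weight over the 3 genotypes, all 4 members were called between BM CD11b+ and LSK cells (adjusted p under 0.05, edgeR quasi-likelihood test with Benjamini-Hochberg adjustment over 19555 genes), in a comparison that called 58.4% of all genes tested. Bcl2 and Bcl2l2 were lower, as 31.6% of genes were, and Bcl2l1 and Mcl1 were higher, as 26.8% were. All 4 were also called between spleen CD11b+ and LSK cells, with 59.9% of all genes called (31.6% lower and 28.3% higher), in the same directions. Between spleen and BM CD11b+ cells, where 14% of genes were called, 1 member was called: Bcl2l1, lower in the spleen, as 7.4% of genes were. DESeq2 called the same numbers of members. Over all genes tested the fold change had a median log2 of -0.17 in BM and -0.14 in spleen CD11b+ against LSK cells, and -0.99 and -0.90 when libraries were scaled by their totals alone. All 8 member changes kept their direction and call under that scaling, which called 50.4% of genes lower and 13.8% higher in BM and 47.9% and 16.3% in spleen CD11b+ cells. Falls became larger and rises smaller under it, as in Bcl2 (-2.07) and Bcl2l1 (0.93) of the spleen and Mcl1 of the BM (0.87). Within genotypes, BM CD11b+ against LSK cells called 4 of 4 members in MxCre (36.9% of all genes), 3 in Ptpn11D61Y/+ (19.7%) and 3 in S3 (27.1%). Spleen CD11b+ against LSK cells called 4 in MxCre (41.6%), 0 in Ptpn11D61Y/+ (18.1%) and 3 in S3 (27.4%). The numbers of genes called depended on single libraries. With 1 library left out, S3 called 2954 to 7175 genes in the BM, beside 5301 with all. In the spleen S3 called 3006 to 6679, beside 5349 with all. Both control genotypes called fewer genes than with all libraries, in BM and spleen. In Ptpn11D61Y/+ spleen, 1 member had an unadjusted p under 0.05 (34.6% of all genes), and DESeq2 called 1 (12.7% of genes higher and 14.8% lower). A fit of only the libraries compared called Bcl2, Bcl2l1 and Mcl1. That fit called 4444 genes higher and 4733 lower of 17759 tested.

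Bcl2, the founding member of the family, was at 56.6 and 60.5 CPM in MxCre, 68.2 and 59.4 CPM in Ptpn11D61Y/+ and 77.1, 83.7 and 91.8 CPM in S3 LSK libraries. In BM CD11b+ cells it was at 6.94 and 16.4 CPM in MxCre, 17.0 and 17.6 CPM in Ptpn11D61Y/+ and 19.4, 21.7 and 29.6 CPM in S3. In spleen CD11b+ cells it was at 36.4 and 14.4 CPM in MxCre, 34.9 and 36.2 CPM in Ptpn11D61Y/+ and 26.8, 28.0 and 12.9 CPM in S3. All 7 LSK libraries lay above all 14 CD11b+ libraries. How many of all genes separate in this way was not counted, while 58.4% and 59.9% were called against LSK cells. The log2 fold change of Bcl2 from LSK cells was -2.01 (SE 0.256, adjusted p = 1.13e-05) in BM CD11b+ and -1.32 (SE 0.250, adjusted p = 0.00037) in spleen CD11b+ cells. Within each genotype its decrease in the BM was called (-2.33 in MxCre, -1.88 in Ptpn11D61Y/+ and -1.83 in S3). A fit of only the libraries compared lost the MxCre call (adjusted p = 0.0517), and the value was -1.86 without BM MxCre 1 and -3.10 without BM MxCre 2, called in both cases. In the spleen it was called in MxCre (-1.20) and S3 (-1.90), and Ptpn11D61Y/+ gave -0.84 (adjusted p = 0.197). The Ptpn11D61Y/+ call in the BM was lost without LSK Ptpn11D61Y/+ 1 or either BM library (adjusted p = 0.0731 to 0.102), and the MxCre call in the spleen without either LSK library or spleen MxCre 2 (adjusted p = 0.104 to 0.273), while it was -2.03 without spleen MxCre 1. The MxCre call in the spleen was also lost with no filter on low counts, in a fit of only these libraries and with equal numbers as a block (adjusted p = 0.053, 0.0977 and 0.0871). Its value ranged from -2.03 to -0.70 on leaving out 1 library at a time. The difference between spleen and BM was 0.70 (adjusted p = 0.0709), and it was called without BM MxCre 2 (0.95), spleen MxCre 2 (0.87), BM S3 640 (0.76) or spleen S3 640 (0.79).

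Markers of B cells, which use Bcl2, differed between libraries of the spleen. Their sum was 220 and 96.1 CPM in MxCre, 1433 and 2024 CPM in Ptpn11D61Y/+, and 891, 801 and 81.1 CPM in S3 540, 815 and 640, with Cd79a or Cd79b the most abundant. The lowest Bcl2 levels of the spleen, in S3 640 and MxCre 2, were in the 2 libraries with the lowest B cell sums, but MxCre 1 had the highest Bcl2 (36.4 CPM) at the next lowest sum. The part of these transcripts in the Bcl2 values was not tested.

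Bcl2l2, encoding the less studied BCL-W, had the lowest level per kb in LSK cells. It ranged from 12.4 to 18.5 CPM (median 16.3) in LSK cells, from 3.62 to 17.6 CPM (median 6.09) in BM and from 4.21 to 18.9 CPM (median 7.27) in spleen CD11b+ cells. BM S3 640 (17.6 CPM), spleen S3 640 (13.3 CPM) and spleen Ptpn11D61Y/+ 1 (18.9 CPM) reached or passed the lowest LSK values, and the other 11 CD11b+ libraries lay below all LSK libraries. The log2 fold change from LSK cells was -1.42 (SE 0.340, adjusted p = 0.00236) in BM and -1.02 (SE 0.336, adjusted p = 0.0162) in spleen CD11b+ cells. Within genotypes it was called in MxCre in both comparisons (-2.13 and -1.89), and these calls were lost without any 1 of their 4 libraries (adjusted p = 0.0586 to 0.103), and that in the BM without the 3 libraries holding both sex-linked transcripts (adjusted p = 0.0741). It was not called in Ptpn11D61Y/+ (-1.35 and -0.45) or in S3 (-0.76 and -0.70). These depended on single libraries and on the fit. The S3 value in the BM was -1.66 and called without BM S3 640 (adjusted p = 0.012). Leaving out single libraries also took it to -0.39, and the S3 value in the spleen ranged from -1.01 to -0.41. In the BM the Ptpn11D61Y/+ value was called in a fit of only these libraries (-1.36, adjusted p = 0.000257). That fit called 33.9% of genes higher and 37.4% lower. Equal numbers as a block also called the S3 value in the BM (-1.41, adjusted p = 0.0485). Leaving out spleen Ptpn11D61Y/+ 2 took the averaged spleen value to -0.86 (adjusted p = 0.0582).

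Bcl2l1 showed the widest range between fractions. In LSK cells it was at 23.6 and 25.03 CPM in MxCre, 23.2 and 21.02 CPM in Ptpn11D61Y/+ and 27.3, 29.7 and 23.1 CPM in S3. In BM CD11b+ cells it was at 165 and 493 CPM in MxCre, 533 and 448 CPM in Ptpn11D61Y/+ and 273, 386 and 65.6 CPM in S3 540, 815 and 640. In spleen CD11b+ cells it was at 68.3 and 135 CPM in MxCre, 50.1 and 31.3 CPM in Ptpn11D61Y/+ and 79.8, 70.4 and 184 CPM in S3 540, 815 and 640. All CD11b+ libraries lay above all LSK libraries, and the BM and spleen ranges overlapped through BM S3 640 and BM MxCre 1. How many of all genes separate from LSK cells in this way was not counted. The log2 fold change of Bcl2l1 was 3.80 (SE 0.403, adjusted p = 2.01e-06) in BM CD11b+ against LSK cells and 1.67 (SE 0.367, adjusted p = 0.00116) in spleen CD11b+ against LSK cells. The spleen was lower than the BM (log2 fold change -2.13, SE 0.373, adjusted p = 0.00214). Within genotypes the rise of Bcl2l1 in the BM was called in all 3 (3.76 in MxCre, 4.47 in Ptpn11D61Y/+ and 3.18 in S3). In the spleen it was called in MxCre and S3 (2.06 in each), and Ptpn11D61Y/+ gave 0.88 (adjusted p = 0.355). The Ptpn11D61Y/+ value ranged from 0.47 to 1.15 on leaving out 1 library at a time. Spleen against BM gave -1.69 in MxCre (adjusted p = 0.184, 0.915% of genes called), -3.59 in Ptpn11D61Y/+ (adjusted p = 0.0198, 3.69% called) and -1.11 in S3 (adjusted p = 0.53, 0.0563% called). The MxCre value was -0.69 without BM MxCre 2, and the S3 value was -0.60 without BM S3 815 and -1.69 without spleen S3 640. The shares of genes called between spleen and BM also hung on single libraries. With 1 library left out, S3 called 0 to 463 genes, beside 11 with all. Ptpn11D61Y/+ called fewer than with all, and MxCre fewer or more, depending on the library. The spleen against LSK call was lost in MxCre with library totals alone (0.87, adjusted p = 0.255) and without either LSK library or spleen MxCre 2 (adjusted p = 0.122 to 0.146), and in S3 without LSK S3 540 or 768 (adjusted p = 0.052 and 0.0584). Equal numbers as a block lost both calls (adjusted p = 0.051 and 0.0637). The Ptpn11D61Y/+ call between spleen and BM was lost without any 1 of its 4 libraries (adjusted p = 0.0745 to 0.164).

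The erythroid markers moved with Bcl2l1 in BM CD11b+ cells, but not throughout the spleen. In the BM their sum was lowest in S3 640 (14860 CPM) and MxCre 1 (50148 CPM), the 2 libraries with the lowest Bcl2l1. It was 68570 and 125329 CPM in S3 540 and 815, 162235 and 162655 CPM in Ptpn11D61Y/+ and 224157 CPM in MxCre 2. In the spleen it was highest in S3 640 (29520 CPM), which also had the highest Bcl2l1, but MxCre 2 had the second highest Bcl2l1 and the lowest erythroid sum (1184 CPM). Spleen Ptpn11D61Y/+ 1 had a larger erythroid sum than MxCre 1 (5192 against 3486 CPM) at a lower Bcl2l1 level (50.1 against 68.3 CPM). LSK libraries had erythroid sums of 130 to 1621 CPM. The part of erythroid transcripts in the Bcl2l1 values was not tested.

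**Figure D3:**
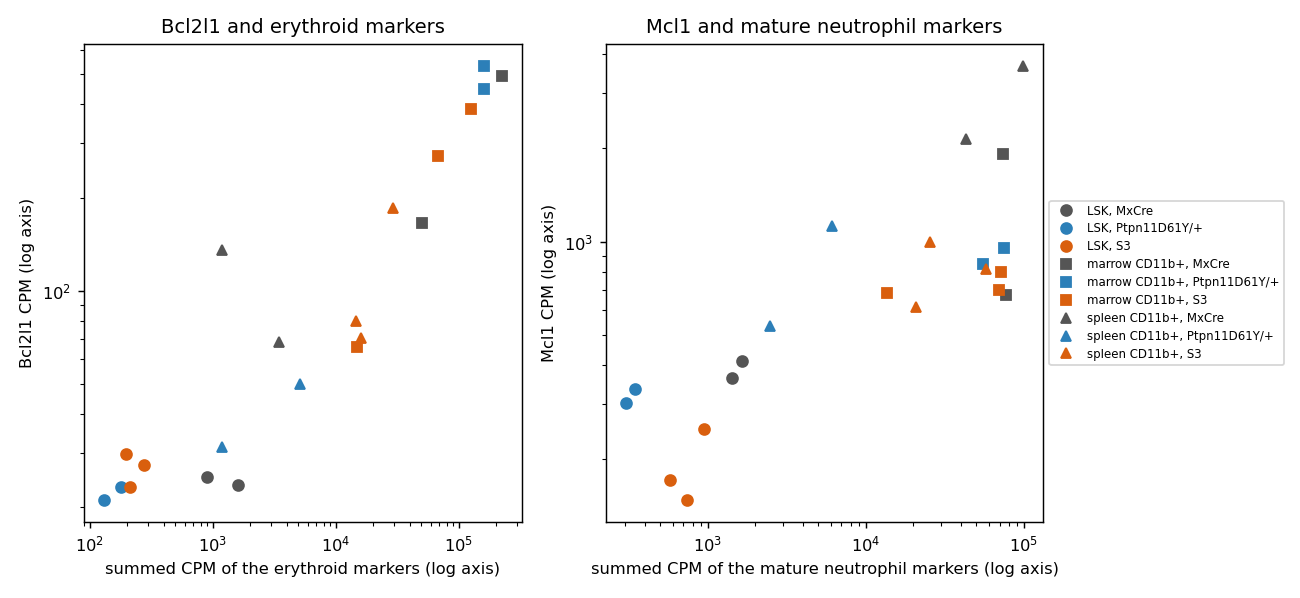
Bcl2l1 against the summed CPM of 10 erythroid markers (left) and Mcl1 against that of 8 mature neutrophil markers (right), 1 point per library, all axes in CPM on log scales, with fractions by shape and genotypes by color. The BM points with the highest erythroid sums are the highest for Bcl2l1, and the 2 spleen MxCre points are the highest for Mcl1.

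Mcl1 was at 414 and 363 CPM in MxCre, 335 and 302 CPM in Ptpn11D61Y/+ and 171, 249 and 147 CPM in S3 540, 815 and 768 in LSK cells. In BM CD11b+ cells it was at 1917 and 673 CPM in MxCre, 953 and 846 CPM in Ptpn11D61Y/+ and 797, 696 and 685 CPM in S3. In spleen CD11b+ cells it was at 2140 and 3680 CPM in MxCre, 536 and 1125 CPM in Ptpn11D61Y/+ and 817, 994 and 616 CPM in S3 540, 815 and 640. All CD11b+ libraries lay above all LSK libraries, while BM and spleen overlapped. The separation from LSK cells was not counted over all genes. The log2 fold change of Mcl1 from LSK cells was 1.73 (SE 0.265, adjusted p = 6.61e-05) in BM and 2.13 (SE 0.269, adjusted p = 9.71e-06) in spleen CD11b+ cells. Its rise in the BM was called within each genotype (1.74, 1.498 and 1.94 in MxCre, Ptpn11D61Y/+ and S3). In the spleen it was called in MxCre (2.90) and S3 (2.10), and Ptpn11D61Y/+ gave 1.38 (adjusted p = 0.0559), with 1.78 (adjusted p = 0.0439) without spleen Ptpn11D61Y/+ 1 and 0.72 (adjusted p = 0.444) without spleen Ptpn11D61Y/+ 2. The MxCre call in the BM was lost without either LSK library or BM MxCre 1 (adjusted p = 0.0702 to 0.238), with a value of 0.77 without BM MxCre 1 and 2.28 without BM MxCre 2, and the Ptpn11D61Y/+ call without any 1 of its 4 libraries (adjusted p = 0.117 to 0.213). Scaling by library totals alone took them to 0.67 and 0.61, neither called. The MxCre call was also lost in a fit of only these libraries (adjusted p = 0.128), and the Ptpn11D61Y/+ call with RLE (median of ratios) factors, no filter on low counts or equal numbers as a block (adjusted p = 0.0604, 0.0537 and 0.0542). Spleen against BM gave 0.40 (adjusted p = 0.336), and 0.72 (adjusted p = 0.0492) without BM MxCre 1.

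**Figure D4:**
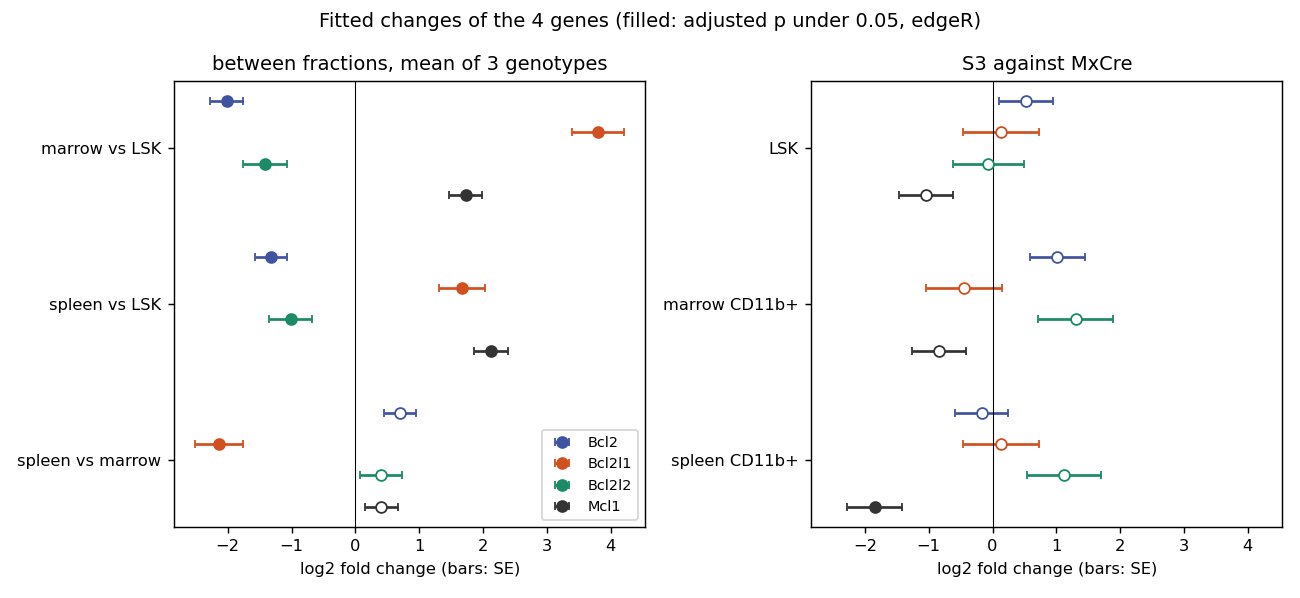
Log2 fold changes of the 4 genes (points) with SE (bars) between fractions, averaged over genotypes (left), and in S3 against MxCre within each fraction (right). Filled points passed an adjusted p of 0.05: all 8 changes against LSK cells, Bcl2l1 between spleen and BM, and Mcl1 in S3 against MxCre in the spleen.

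Ratios between 2 genes of the same library are free of the scaling between libraries. The 6 ratios were compared between fractions by an exact two-sided permutation test of fraction labels within genotypes, adjusted over 18 comparisons, of which 12 passed an adjusted p of 0.05. Mcl1 was a median of 13.1 times Bcl2 per kb in LSK cells (4.29 to 19.6), 110 times in BM (61.9 to 738) and 95.01 times in spleen CD11b+ cells (41.2 to 683). Bcl2l1 was at 0.707 times the level of Bcl2 in LSK cells (0.504 to 0.834), at 47.4 times in BM (4.42 to 62.6) and at 5.02 times in spleen CD11b+ cells (1.73 to 28.5). By merged exon length Bcl2 thus exceeded Bcl2l1 in 7 of 7 LSK libraries and Bcl2l1 exceeded Bcl2 in 14 of 14 CD11b+ libraries.

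The LSK and CD11b+ libraries did not overlap in any ratio of Mcl1 or Bcl2l1 to Bcl2 or Bcl2l2. Such separation was not counted over other pairs of genes, in comparisons that called 58.4% and 59.9% of all genes. On the log2 scale, Mcl1/Bcl2 was higher than in LSK cells by 3.74 in BM and 3.47 in spleen CD11b+ cells, and Mcl1/Bcl2l2 by 3.19 and 3.18. Bcl2l1/Bcl2 was higher by 5.68 and 2.97, and Bcl2l1/Bcl2l2 by 5.14 and 2.68. Each of these 8 differences had p = 0.00278, the smallest the exact permutation test allows, and adjusted p = 0.00625. An exact sign-flip test over 6 equally numbered pairs, whose smallest p is 0.03125, gave an adjusted p = 0.0625 for all 8.

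The ratio of the 2 genes that were higher in myeloid cells, Mcl1/Bcl2l1, differed between the CD11b+ fractions, with overlap. Per kb its median was 19.3 in LSK cells (8.41 to 23.5), 2.53 in BM (1.83 to 15.6) and 18.9 in spleen CD11b+ cells (4.49 to 48.1). It was lower in BM than in LSK cells by 1.95 on the log2 scale (difference -1.95, exact permutation adjusted p = 0.03) and higher in spleen than in BM by 2.45 (adjusted p = 0.0167). Animal 640 ran the other way, at 14.01 in BM and 4.49 in spleen. Over equally numbered pairs the sign-flip test did not call the spleen against BM difference (2.25, adjusted p = 0.0767). Without the 3 libraries that held both sex-linked transcripts, the adjusted p of these differences was 0.0909 (-1.37) and 0.0667 (1.80). The spleen was also lower than the BM in Bcl2l1/Bcl2 (-2.71, adjusted p = 0.0417) and Bcl2l1/Bcl2l2 (-2.46, adjusted p = 0.0364), with adjusted p = 0.125 and 0.128 without these libraries and 0.0865 and 0.0767 over equally numbered pairs. In Bcl2/Bcl2l2, BM against LSK cells gave -0.55 (adjusted p = 0.0538, but 0.0167 at -0.74 without BM MxCre 2 and 0.0222 at -0.70 without BM S3 815), spleen against LSK cells -0.30 (adjusted p = 0.563) and spleen against BM 0.25 (adjusted p = 0.669). Spleen against LSK cells in Mcl1/Bcl2l1 gave 0.50 (adjusted p = 0.221), and spleen against BM gave -0.26 in Mcl1/Bcl2 (adjusted p = 0.674) and -0.01 in Mcl1/Bcl2l2 (adjusted p = 0.986). Every difference of this paragraph that was called with all libraries lost its call when some single library was left out.

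**Figure D5:**
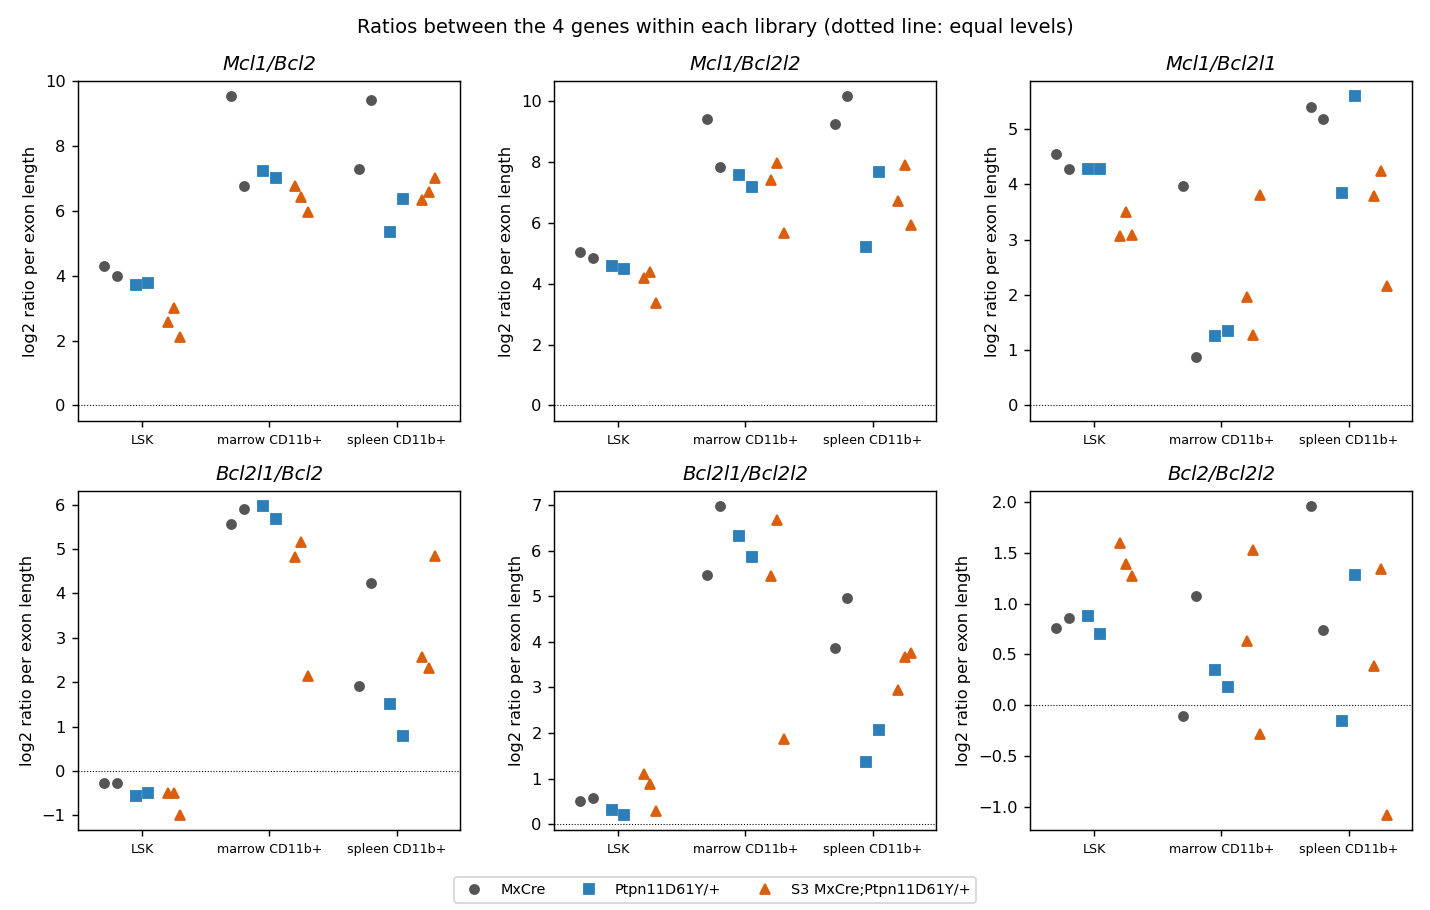
Log2 ratios between the 4 genes per exon length within each library, by fraction and genotype; the dotted line marks equal levels. Bcl2l1/Bcl2 lies under the line in all 7 LSK libraries and above it in all 14 CD11b+ libraries. Mcl1/Bcl2 is lower in the S3 than in the MxCre libraries of each fraction, but the BM groups nearly meet (6.778 in S3 540 and 6.780 in MxCre 2).

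The second comparison asked how S3 leukemic mice differ from MxCre controls within a fraction. Of the 12 changes, 4 genes in 3 fractions, 1 was called: Mcl1 was lower in S3 spleen CD11b+ cells, with a log2 fold change of -1.85 (SE 0.427, adjusted p = 0.0255), in a comparison that called 4.19% of genes (2.67% lower). The S3 libraries, at 616 to 994 CPM, all lay below the MxCre libraries at 2140 and 3680 CPM, as they did for 12.9% of all genes tested. The balance of all calls turned with the processing: 1.51% of genes were called higher here, while library totals alone gave 3.38% higher and 1.31% lower, and DESeq2 gave 10.3% and 7.68%. With DESeq2 the change was -1.87 (adjusted p = 0.000601). The call was lost, with the direction kept, when only the spleen S3 and MxCre libraries were fitted (-1.92, adjusted p = 0.196). It was also lost without spleen MxCre 2 (-1.39, adjusted p = 0.122), spleen S3 540 (-1.85, adjusted p = 0.0734) or spleen S3 640 (-1.68, adjusted p = 0.0691).

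Mcl1 was also lower in the other control genotype of the spleen, whose library 1 has the high mitochondrial share given above. Ptpn11D61Y/+ against MxCre shares the MxCre libraries with the comparison above. It called 5.11% of genes (3.02% lower, but 1.42% lower and 7.31% higher with library totals alone). Fewer genes were called whichever of its libraries was left out. Mcl1 gave a log2 fold change of -1.81 there (SE 0.487, adjusted p = 0.043). Equal replicate numbers as a block gave an adjusted p of 0.084, and the call was also lost with scaling by library totals alone (-1.18, adjusted p = 0.0862), in a fit of only these libraries (-1.80, adjusted p = 0.138), and without spleen MxCre 2 or either Ptpn11D61Y/+ library (adjusted p = 0.0541 to 0.347). S3 against Ptpn11D61Y/+ gave -0.04 (adjusted p = 1), with Ptpn11D61Y/+ at 536 and 1125 CPM on both sides of the S3 libraries, in a comparison that called 0.00511% of genes. The spleen Mcl1 values therefore set the 2 MxCre libraries apart from the 5 others, S3 and Ptpn11D61Y/+ alike. In LSK and BM CD11b+ cells, edgeR called none of the 4 members in S3 against Ptpn11D61Y/+ (0.0972% and 0% of genes called) or in Ptpn11D61Y/+ against MxCre (0.0614% and 0%). None there had an unadjusted p under 0.05, and DESeq2 called none. In the spleen 2 members had an unadjusted p under 0.05 in Ptpn11D61Y/+ against MxCre (24.7% of all genes), where 1 was called. In S3 against Ptpn11D61Y/+ 1 had (8.88% of all genes), and 0 were called.

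Mature neutrophil markers differed between these libraries too. The sum of 8 such genes, led by S100a9, was 43137 and 99281 CPM in spleen MxCre, 2478 and 6092 CPM in Ptpn11D61Y/+ and 57234, 25258 and 20775 CPM in S3 540, 815 and 640. MxCre 2 had the highest sum and the highest Mcl1, yet S3 540 exceeded MxCre 1 in the marker sum at a lower Mcl1 level. None of the 8 markers was at 0 in a spleen library. The part of neutrophil transcripts in the Mcl1 values was not tested.

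In LSK cells 0.0307% of genes were called in S3 against MxCre and none of the 4 members, with 1 member at an unadjusted p under 0.05 and none called by DESeq2. That member was Mcl1, at a log2 fold change of -1.04 (SE 0.425, adjusted p = 1). All 3 S3 libraries lay below both MxCre libraries, as they did for 28.9% of all genes tested. Bcl2 had a fold change of 0.52 (adjusted p = 1) with all S3 libraries above both MxCre libraries, as 29.1% of genes had. Fitting only the LSK libraries of both groups gave adjusted p = 0.0355 for Mcl1 (-1.07) and 0.0169 for Bcl2 (0.49), and called 4700 genes. Bcl2l1 gave 0.13 (SE 0.5997) and Bcl2l2 -0.07 (SE 0.556), both smaller than the SE.

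In BM CD11b+ cells 0% of genes were called by edgeR, with 3022 genes at an unadjusted p under 0.05 and 952 called by DESeq2. Among the members, 2 were at an unadjusted p under 0.05 and none was called by DESeq2. Bcl2 gave a log2 fold change of 1.02 (SE 0.426, adjusted p = 0.28), Bcl2l2 1.30 (adjusted p = 0.305, and 0.40 without BM S3 640), Mcl1 -0.83 (adjusted p = 0.353) and Bcl2l1 -0.45 (adjusted p = 0.732). Bcl2 was higher in all 3 S3 libraries than in both MxCre libraries, as 5.74% of genes were, and no member was lower in all 3, as 5.49% of genes were. The MxCre libraries differed, and the value was 1.78 (adjusted p = 0.0434) without BM MxCre 2 and 0.54 (adjusted p = 0.817) without BM MxCre 1. Mcl1 in the 3 S3 libraries lay above one MxCre library (673 CPM) and below the other (1917 CPM), and without the latter the sign turned to 0.12 (adjusted p = 0.978). In the spleen Bcl2 gave -0.17 (adjusted p = 0.823), Bcl2l1 0.13 (adjusted p = 0.916) and Bcl2l2 1.13 (adjusted p = 0.233), with all S3 libraries of Bcl2l2 above both MxCre libraries, as 20.2% of genes had.

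Differences between fractions in the S3 against MxCre change were tested for the 4 genes and 3 pairs of fractions, in comparisons that called 0%, 0.00511% and 0% of genes. None of the 12 interaction tests passed, the smallest adjusted p being 0.489. DESeq2 called none of them, and none had an unadjusted p under 0.05. For Mcl1, the log2 fold change in the spleen minus that in LSK cells was -0.81 (adjusted p = 0.563), and minus that in the BM it was -1.01 (adjusted p = 0.604). The former was -0.36 without spleen MxCre 2, and the latter ran from -1.95 without BM MxCre 1 to -0.45 without BM MxCre 2.

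Of the 6 ratios in 3 fractions, which are built from the same 4 genes and libraries, 0 of 18 comparisons of S3 with MxCre passed after adjustment and 7 were at the smallest p the exact permutation test allows. These 7 include Mcl1/Bcl2, which was lower in S3 than in MxCre in each fraction, and Mcl1/Bcl2l1 in LSK cells (-1.20). Of the 18, Mcl1/Bcl2l2 had the largest difference, of -2.85 in the spleen (adjusted p = 0.257). In LSK cells the Mcl1/Bcl2 ratio per kb was 19.6 and 16.1 in MxCre and 4.29 to 7.96 in S3. In the BM it was 110 and 738 in MxCre and 61.9 to 110 in S3, where the lower MxCre value of 109.9 and the highest S3 value of 109.7 nearly met. In the spleen it was 157 and 683 in MxCre and 81.6 to 128 in S3. The log2 differences were -1.59, -1.77 and -1.72, each with an exact permutation p = 0.1, the smallest that 3 against 2 libraries allow, and adjusted p = 0.257. Leaving out any single library kept the direction in all 3 fractions, but the size hung on single MxCre libraries. In the BM the difference was -0.40 without MxCre 1 and -3.14 without MxCre 2, and in the spleen it was -2.77 without MxCre 1 and -0.66 without MxCre 2. Ptpn11D61Y/+ libraries lay between both groups in LSK cells (13.1 and 13.6). They lay above S3 in the BM (129 and 150) and at 41.2 and 83.2 in the spleen.

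The shares in LSK cells restate the same counts and differed in the same direction, though no ratio passed after adjustment. Mcl1 held 87.1% and 89.0% of the summed level per kb in MxCre, 85.4% and 85.5% in Ptpn11D61Y/+ and 69.1%, 74.5% and 79.2% in S3. Bcl2 held 4.54% and 5.42% in MxCre, 6.27% and 6.51% in Ptpn11D61Y/+ and 9.95%, 12.5% and 16.1% in S3. Bcl2l1 held 3.79% and 4.47% in MxCre, 4.42% and 4.43% in Ptpn11D61Y/+ and 7.04%, 8.12% and 8.86% in S3. The S3 libraries were the lowest of the 7 for Mcl1 and the highest for both Bcl2 and Bcl2l1. These shares are parts of 1 sum, so a lower share of Mcl1 raises the others. The CPM of Bcl2l1 overlapped between the groups, at 27.3, 29.7 and 23.1 in S3 and 23.6 and 25.03 in MxCre. In CPM, 28.9% of all genes were lower and 29.1% higher in all S3 than in both MxCre libraries of LSK cells. Cell markers differed between these libraries too. The stem and progenitor sum was 1636 and 1721 CPM in MxCre, 1508 and 1655 CPM in Ptpn11D61Y/+ and 1098 to 1240 CPM in S3. The 8 immature neutrophil genes, led by Mpo, summed to 3397 and 2785 CPM in MxCre, 2744 and 2678 CPM in Ptpn11D61Y/+ and 4945 to 6334 CPM in S3. The mature neutrophil sum was 1643 and 1424 CPM in MxCre, 348 and 301 CPM in Ptpn11D61Y/+ and 580 to 944 CPM in S3. The part of these transcripts in the LSK values was not tested.

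Other genes of the pathway were read from lists. Bcl2a1a, Bcl2a1b and Bcl2a1d encode A1, a further anti-apoptotic protein. These near-identical copies share reads, so their single values are uncertain. All 3 were called higher in CD11b+ than in LSK cells, as 26.8% of genes were in the BM and 28.3% in the spleen, with log2 fold changes of 3.24 to 4.97 in the BM and 6.69 to 7.87 in the spleen. They were called higher in spleen than in BM (2.90 to 3.45), as 6.56% of genes were. None was called in S3 against MxCre, where 1 in LSK cells, 1 in the BM and 0 in the spleen were at an unadjusted p under 0.05 by edgeR and DESeq2 called 0. Bcl2l10, the 4th gene of the list, did not pass the filter on low counts.

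BH3-only genes encode the proteins that the anti-apoptotic members bind. Of 8, 7 passed the filter (Hrk did not), and all 7 were called higher in BM CD11b+ than in LSK cells (26.8% of all genes), with a median log2 fold change of 1.69 beside -0.17 over all genes tested. In spleen CD11b+ cells 5 were called higher and 1 lower than in LSK cells, beside 28.3% and 31.6% of all genes. Pmaip1, encoding NOXA, a partner of MCL-1, changed most, by 3.93 in the BM and 6.07 in the spleen. The 7th, Bid, gave 0.50 in the spleen (adjusted p = 0.0526). Bcl2l11, encoding BIM, rose by 0.66 (adjusted p = 0.0359) and 1.69, and Bbc3, encoding PUMA, by 1.82 and 2.56. Bik was the one that fell in the spleen, at no more than 1.52 CPM in any library of the CD11b+ fractions.

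In S3 against MxCre spleen CD11b+ cells, 2 BH3-only genes were called lower and 1 higher of the 7 (4.19% of all genes called, 2.67% lower), with 5 at an unadjusted p under 0.05 (25.3% of all genes) and a median of -1.08 beside 0.32 over all genes tested. Bcl2l11 was at 83.5 and 175 CPM in MxCre and at 32.3, 27.4 and 50.4 CPM in S3 (log2 fold change -1.81, SE 0.421, adjusted p = 0.0256). Bbc3 was at 146 and 164 CPM in MxCre and at 44.4, 41.8 and 42.3 CPM in S3 (-1.86, SE 0.447, adjusted p = 0.0299). The groups did not overlap for either gene, and 12.9% of all genes were lower in all S3 libraries. A fit of only the spleen S3 and MxCre libraries called 0 genes, so Bcl2l11, Bbc3 and Bik were not called there. Bik was called higher at 0 counts in both MxCre libraries and at most 0.441 CPM in S3. Bcl2l11 and Bbc3 stood in spleen Ptpn11D61Y/+ libraries at 46.9 and 35.3 CPM and at 29.3 and 80.5 CPM, below MxCre as Mcl1 did. Against the shared MxCre libraries these gave adjusted p = 0.0552 and 0.0872. No BH3-only gene was called by edgeR in the BM or in LSK cells, with 0 and 1 at an unadjusted p under 0.05 and none called by DESeq2.

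The effectors are encoded by Bax, Bak1 and Bok. Bax and Bak1 were called higher in both CD11b+ fractions than in LSK cells, by 1.26 and 0.85 in the BM and by 1.89 and 0.94 in the spleen, where 26.8% and 28.3% of all genes were called higher. Bok gave -0.49 in the BM (adjusted p = 0.449) and was called lower in the spleen (-2.25). None of the 3 was called in S3 against MxCre in any fraction by edgeR or DESeq2, nor at an unadjusted p under 0.05.

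MCL-1 is a short-lived protein, and 8 genes were listed under its turnover, among them the ubiquitin ligases Huwe1 and Fbxw7 and the deubiquitinase Usp9x. The list also holds the adaptor Trib1, whose part in MCL-1 turnover was not tested. In BM CD11b+ against LSK cells 4 were called higher and 3 lower, beside 26.8% and 31.6% of all genes. Huwe1 (-2.55) and Usp9x (-2.75) were lower, and Trib1 (3.94) was higher. In S3 against MxCre spleen CD11b+ cells 1 of 8 was called (4.19% of all genes), with 5 at an unadjusted p under 0.05 (25.3% of all genes): Trib1, at 1036 and 1503 CPM in MxCre and 253, 140 and 199 CPM in S3 (-2.69, SE 0.599, adjusted p = 0.0228). This call too was lost in the fit of only the spleen S3 and MxCre libraries. In spleen Ptpn11D61Y/+ it was at 86.5 and 209 CPM (-3.10, adjusted p = 0.024). None of the 8 was called in LSK or BM CD11b+ cells, with 1 and 2 at an unadjusted p under 0.05 by edgeR and 0 and 1 called by DESeq2.

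Genes of the most similar profile were sought by the root mean square difference of mean-centred log2 CPM over the 21 libraries, among the 8773 genes whose log2 CPM averaged 3 or more. For Bcl2 they were Slc38a1 (0.33), an amino acid transporter, Itpr1 (0.33), a calcium channel of the endoplasmic reticulum, and Phf6 (0.39), where Bcl2 itself had an SD of 0.99 log2 CPM. For Bcl2l1 they were March2 (0.41), Mkrn1 (0.44) and Cd24a (0.48), a surface protein of immature blood cells. For Bcl2l2 Sec31a (0.26) and Pdxdc1 (0.29) are given, and for Mcl1 they were Prrg2 (0.37), Pnrc1 (0.37) and Lmbr1l (0.39). The 21 libraries come from 3 fractions and differ in depth, so the likeness is a description.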

How the data were processed

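RNA-seq of 21 libraries was analysed from the read counts per gene that the authors deposited, 1 table of 45706 Ensembl identifiers per library, not normalized. Per the labels and the study's methods, paired-end reads were trimmed with Trim Galore 0.6.5 and aligned to GRCm38 with STAR 2.5.3a. The counting program, annotation, use of strand and handling of multi-mapping reads are not given in the sources used here, so reads of overlapping or near-identical genes may have been split in ways that change their counts.

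Groups were taken from the labels (fraction and genotype). Counts were fitted in 1 model of 9 groups with edgeR 4.0.16 (quasi-likelihood, robust; TMM; filterByExpr with a minimum count of 10 and a minimum total of 15), which kept 19555 genes, with Benjamini-Hochberg adjustment over them and a threshold of 0.05. CPM use TMM-scaled library sizes and log2 CPM a prior count of 2. DESeq2 1.42.0 was an alternative. The scripts were tested on simulated data. Ratios used log2 counts with a pseudocount of 0.5 and exact permutation tests. For CD11b+ cells the methods give 3 mice of each genotype (S3 and MxCre), while the labels hold 2 libraries per control group, so which mice these came from is not known here and p-values measure only the spread between these libraries.

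The 4 members, the gene lists and the tests were chosen with earlier results of these data known. The named genes were the 4 members, listed genes of the pathway and, for each member, the 3 genes of nearest profile, of which 1 is not reported here. Same-numbered S3 libraries of BM and spleen deviated together (correlations of 0.108, 0.333 and 0.407), while those of LSK cells with either did so at -0.096 to 0.086.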

Additional observations from a re-analysis of the deposited data

How the results depend on the processing

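All 8 member changes against LSK cells averaged over genotypes kept their direction under each alternative, and all but Bcl2l2 in the spleen kept the call. Values that moved are given on the log2 scale, and the cause was not tested. For S3 against MxCre, fitting only the libraries compared gave 0.49 (Bcl2) and -1.07 (Mcl1) in LSK cells, both then called, and -1.92 for Mcl1 in the spleen, no longer called. Bcl2 in the spleen turned to 0.15 with library size alone and to 0.65 without the 3 libraries of low gene detection. Without the latter, Bcl2l1 was -0.27 in the spleen and -1.53 in the BM, and Mcl1 in the BM was 0.15. Without the 3 libraries holding Xist and Ddx3y (an alternative chosen after seeing the data), Bcl2l1 in the BM was 0.46. For spleen against BM, Bcl2 was 1.08 in the control genotypes alone and Mcl1 0.82 without low-detection libraries, both then called.

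Genes called in S3 against MxCre were 6 in LSK cells (4700 in a fit of only these libraries, 1 without low-detection libraries, 2 without the libraries holding both sex-linked transcripts, 125 by DESeq2). In the BM they were 0 (1 with no filter, 1093 without the libraries holding both transcripts, 952 by DESeq2). In the spleen they were 819 (495 with no filter, 0 in a fit of only these libraries, 1562 without low-detection libraries, 3408 by DESeq2). For spleen against BM they were 2730 (882 in a fit of only these libraries, 4255 without low-detection libraries, 1118 without the libraries holding both transcripts, 4247 by DESeq2).

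With equal numbers as a replicate block, no fraction difference of a ratio passed, since the smallest adjusted p was 0.0625. The paired values were 3.73 and 3.34 for Mcl1/Bcl2 in BM and spleen against LSK cells, 3.31 and 3.23 for Mcl1/Bcl2l2, 5.94 and 2.66 for Bcl2l1/Bcl2, 5.52 and 2.55 for Bcl2l1/Bcl2l2, and -2.21 for Mcl1/Bcl2l1 in the BM. For spleen against BM they were -2.43 (Bcl2l1/Bcl2), -2.28 (Bcl2l1/Bcl2l2) and 2.25 (Mcl1/Bcl2l1). The latter 3 lost the call as well without low-detection libraries (-2.19, -2.19 and 2.75) and without the libraries holding both transcripts (-2.41, -1.99 and 1.80), as did Mcl1/Bcl2l1 in the BM (-1.37). Bcl2/Bcl2l2 in BM against LSK cells was then called (-0.74). Without low-detection libraries Mcl1/Bcl2 and Mcl1/Bcl2l2 in spleen against BM turned to 0.55 and 0.56. No paired analysis was possible because of unshared numbers for S3 against MxCre.

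Leaving out 1 library at a time, S3 against MxCre ranged in the BM from 0.54 to 1.78 (Bcl2), -1.02 to 0.56 (Bcl2l1), 0.40 to 1.68 (Bcl2l2) and -1.39 to 0.12 (Mcl1), in the spleen from -0.68 to 0.65 (Bcl2), -0.44 to 0.73 (Bcl2l1) and -2.18 to -1.39 (Mcl1), and in LSK cells from -0.22 to 0.069 (Bcl2l2). Mcl1 in S3 against Ptpn11D61Y/+ spleen ranged from -0.48 to 0.60. Spleen against BM ranged from 0.43 to 0.95 (Bcl2) and 0.19 to 0.72 (Mcl1). Bcl2l2 in spleen against LSK cells ranged from -1.34 to -0.86, and from -1.34 to 0.047 in Ptpn11D61Y/+. Genes called ranged from 0 to 3 (LSK), 0 to 2040 (BM) and 267 to 860 (spleen) in S3 against MxCre, and from 1310 to 4231 in spleen against BM. Ratios ranged, for BM against LSK cells, from -0.74 to -0.35 (Bcl2/Bcl2l2) and -2.46 to -1.43 (Mcl1/Bcl2l1), for spleen against LSK cells from 0.21 to 0.79 (Mcl1/Bcl2l1), and for spleen against BM from -3.09 to -2.32 (Bcl2l1/Bcl2), -2.93 to -2.12 (Bcl2l1/Bcl2l2), -0.72 to 0.20 (Mcl1/Bcl2), 1.93 to 2.96 (Mcl1/Bcl2l1) and -0.42 to 0.39 (Mcl1/Bcl2l2). A group left with 1 library was assumed to vary like the others. Depth limits Bcl2l2 most, with 96 counts in BM S3 815.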
